A study of Arabidopsis thaliana with 6 samples.

Results

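*AGL42* (AT5G62165), *AGL71* (AT5G51870) and *AGL72* (AT5G51860) encode MADS-box transcription factors of the *SOC1* clade of *Arabidopsis thaliana*. They were taken by locus identifier, 3 genes of the 33554 in the expression tables, and all 3 passed the filter on low counts that left 20690 genes for testing. Their mRNA was measured by RNA-seq in dissected shoot apices of wild-type plants (WT, ecotype Col-0) and of *vip3-1* plants. The latter are null mutants of *VIP3* in the same background. *VIP3* encodes a subunit of the Paf1 complex (Paf1c), a complex that travels with RNA polymerase II during transcription elongation. The authors also place VIP3 in a complex involved in mRNA turnover. In mRNA levels, a change in synthesis and a change in decay cannot be told apart. Plants of both genotypes were grown under short days, at 21°C in the light and cooler in the dark, before a move to 16°C under continuous light. Flowers past stage 4 were dissected off the primary inflorescence. Each library pooled RNA of 2 tubes of 30 to 35 apices, and 3 libraries were made per genotype. The methods call them technical triplicates, and no source says that tubes came from separately grown plants. The p-values below therefore measure the spread between pools of apices, and an effect of the genotype cannot be told apart from a difference in growth or harvest.

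MADS-box proteins bind DNA as dimers at the CArG box, a short element rich in A and T. SOC1 (SUPPRESSOR OF OVEREXPRESSION OF CO 1) is a floral integrator: signals from day length, cold, age and gibberellin meet at its gene in the shoot apex, and FLC and SVP repress it. *AGL42*, *AGL71* and *AGL72* are its close relatives and promote flowering in the shoot apical and axillary meristems, with gibberellin among their inputs. *AGL42* is also known as *FOREVER YOUNG FLOWER*, since its product delays the senescence and abscission of floral organs.

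The 3 genes lie on chromosome 5. In the TAIR10.1 annotation, *AGL72* spans 21081844 to 21084427 and *AGL71* spans 21085462 to 21088414, both on the minus strand, with 1034 bases between them. *AGL42* lies 3876231 bases away on the plus strand, from 24964646 to 24968607. *AGL42* has 17 annotated transcripts, *AGL71* has 5 and *AGL72* has 2, with longest coding sequences of 633, 690 and 636 bases. The first 60 coding bases of the MADS box are shown because they let the neighbours be compared with the distant member and with SOC1. Lower case marks a base shared with *AGL72* and capitals mark a base that differs from it. The longest *AGL71* coding sequence starts 30 bases earlier, so its bases 31 to 90 are given.
AGL72: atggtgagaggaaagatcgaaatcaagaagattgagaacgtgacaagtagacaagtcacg
AGL71: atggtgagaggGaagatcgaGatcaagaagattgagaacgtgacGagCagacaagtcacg
AGL42: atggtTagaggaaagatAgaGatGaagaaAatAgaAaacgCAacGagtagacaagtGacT
SOC1: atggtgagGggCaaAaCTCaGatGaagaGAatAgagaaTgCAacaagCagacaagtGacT

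Over this window *AGL71* differed from *AGL72* at 4 bases, *AGL42* at 12 and *SOC1* at 17. Over the whole aligned coding sequence, *AGL71* and *AGL72* were 74.7% identical. *AGL42* was 65.7% identical to *AGL71*, 64.0% to *AGL72* and 67.7% to *SOC1*, so by this measure it was nearest to *SOC1*. The longest run of identical bases shared by any transcripts of the neighbours was 23 bases, atcaagaagattgagaacgtgac, which is the middle of the window above. *AGL42* shared at most 15 bases with *AGL71*, 13 with *AGL72* and 20 with *SOC1*. How reads that map to more than 1 gene were handled is not given in the sources used here, so a small exchange of reads between the neighbours was not tested.

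A search for the CArG box in the 1000 bases before each annotated gene start found 1 match for *AGL42*, 1 for *SOC1*, and no match for *AGL71* or *AGL72*. Of 27444 genes, 7.21% held a match in such a window. The *AGL42* match lies 598 to 589 bases before the annotated start at chr5:24964048-24964057, and is given in capitals with its flanks, since no other member had one.
AGL42: gttaagtttgCCAAAATAGGgtaaagaata

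In the 6 libraries, total estimated counts lay between 50040048 and 69033269. *VIP3* itself fell from 40.9 ± 0.827 to 6.89 ± 0.808 CPM (mean ± SD, n = 3 each, adjusted p = 0.000192 in edgeR's quasi-likelihood test), in the direction the labels give. CPM are read counts scaled to a common library size after TMM normalization. WT replicate 3 stood apart in the sum of 18 markers of anthers, tapetum, carpels and ovules, which mark older flowers. They summed to 1230 CPM there, against 97.8 to 111 in the other WT libraries and 66.4 to 119 in *vip3-1*. At most 1 of them had no count in a library. The high sum came mostly from *LAP5* (224 CPM), *TKPR1* (221), *ACOS5* (190), *LAP6* (180) and *AMS* (113). In contrast, *TDF1* had 1.27 CPM there, beside 4.94 and 2.3 in WT replicates 1 and 2. *DYT1* likewise had 0.0761 CPM, beside 2.44 and 1.54. *TPD1* changed little (10.5 CPM there, beside 8 and 9.16), and *CRC* had 21, beside 16.6 and 4.65. *SHP1* and *SHP2* were highest there, with 4.62 and 3.86 CPM. *STK* and *INO* were instead highest in *vip3-1* replicate 1, with 4.64 and 1.4 CPM, beside 3.19 and 0.019 in WT replicate 3. The 8 meristem markers, among them *STM*, *WUS* and *CLV3*, were all called higher in *vip3-1* with and without WT replicate 3. Over all tested genes, 14.6% were called higher and 16.1% lower in the main fit. Without that library, 3956 of 20928 genes were called higher. Log2 fold changes of the 8 markers were 0.31 to 2.33, and their sum was 492 to 596 CPM in WT and 853 to 898 in *vip3-1*. The 5 markers of green leaf tissue summed to 4650 to 6280 CPM in WT and 2310 to 3460 in *vip3-1*, a sum carried mostly by *RBCS1A* and *LHCB1.3*, of which *LHCB1.3* was called lower, and the other 4 markers were not called. In bulk tissue, fewer cells of a type and less RNA per cell cannot be told apart. The part of these shifts in the results below was not tested, beyond the values given without WT replicate 3.

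*AGL71* and *AGL72* were higher in *vip3-1* apices than in WT, and no change was detected for *AGL42*. Thus 2 of 3 members were called (adjusted p under 0.05 over all tested genes), both upward. In the same test 30.7% of all 20690 genes were called, 14.6% higher and 16.1% lower. The libraries of the genotypes did not overlap for these 2 members, and every *vip3-1* library lay above every WT library for 25.3% of tested genes and below for 27.3%. The median log2 fold change of all tested genes was -0.018.

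In the order of replicates 1, 2 and 3, *AGL71* was counted 90, 95 and 68 times in WT, whereas the *vip3-1* libraries held 355, 507 and 739 counts. On the CPM scale the levels were 1.27, 1.67 and 1.29 in WT, and 6.89, 9.99 and 14.5 in *vip3-1*. The WT libraries were close together, the *vip3-1* libraries were spread more widely, and the lowest of them was well above the highest WT library. The mean rose from 1.41 ± 0.221 to 10.4 ± 3.81 CPM (SD over 3 libraries each), with a log2 fold change of 2.89 (SE 0.30, adjusted p = 0.00224, edgeR's quasi-likelihood test). As a fold this was 7.39, with a 95% confidence interval of 4.48 to 12.2. Among the called genes, 144 had a larger log2 fold change. Without WT replicate 3 the value was 2.83 (adjusted p = 0.00315, edgeR), and *AGL71* was called in each of the 14 alternative fits.

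**Figure D1:**
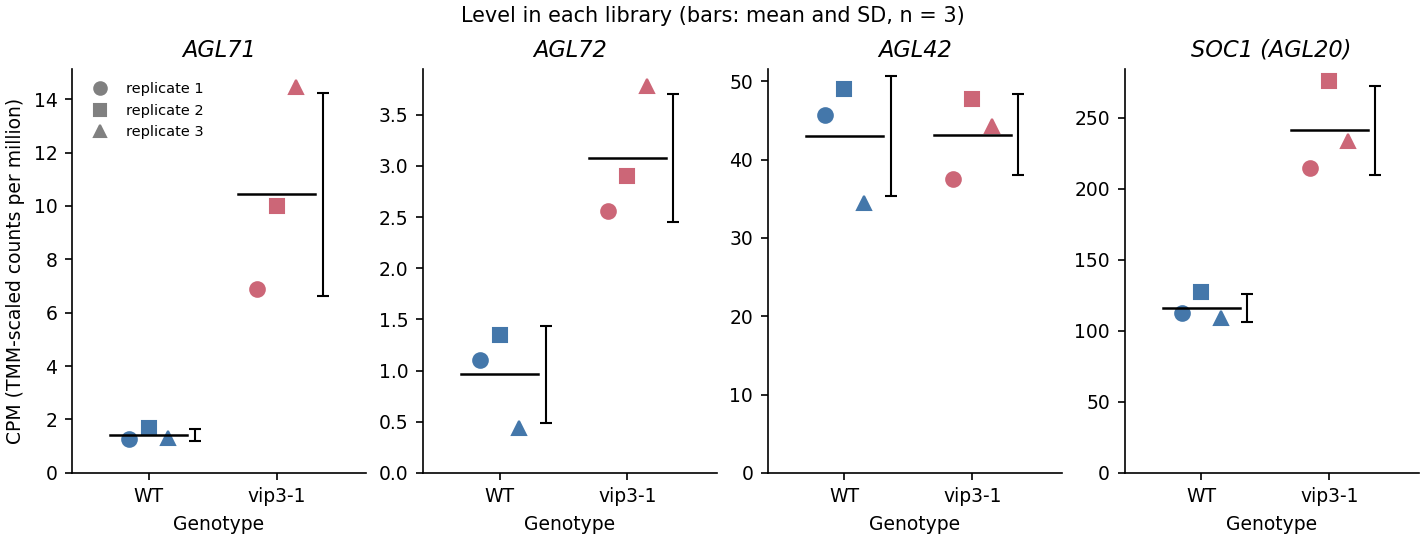
Level of *AGL71*, *AGL72*, *AGL42* and *SOC1* in each library, in CPM (TMM-scaled, vertical axes starting at 0 and differing between panels). Symbols mark the replicate number, horizontal bars the mean and vertical bars the SD of 3 libraries. The genotypes do not overlap for *AGL71*, *AGL72* and *SOC1*, and they do for *AGL42*, whose means are 43.0 and 43.2 CPM.

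*AGL72*, the downstream neighbour of *AGL71*, was the least abundant member. The WT libraries held 78, 77 and 23 counts of it, and the *vip3-1* libraries 132, 147 and 193. The CPM values were 1.10, 1.35 and 0.437 in WT and 2.56, 2.90 and 3.78 in *vip3-1*. WT replicate 3, the library with the high sum of older-flower markers, was low by itself, whereas the 3 *vip3-1* libraries lay near each other. The mean rose from 0.965 ± 0.473 to 3.08 ± 0.628 CPM (SD over 3 libraries each), with a log2 fold change of 1.67 (SE 0.42, adjusted p = 0.0287, edgeR's quasi-likelihood test), or 3.18-fold (95% confidence interval 1.57 to 6.43). The call held without WT replicate 3, at a log2 fold change of 1.32 (adjusted p = 0.00985, edgeR). The call was lost in edgeR's test without WT replicate 1 (1.77, adjusted p = 0.0603), and also without *vip3-1* replicate 1 (1.78, adjusted p = 0.0663), replicate 2 (1.71, adjusted p = 0.0846) or replicate 3 (1.49, adjusted p = 0.0885).

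*AGL42* was the most abundant member, and its genotypes overlapped. The WT libraries held 3228, 2793 and 1809 counts of it, and the *vip3-1* libraries 1935, 2424 and 2264. The CPM values were 45.7, 49.0 and 34.4 in WT and 37.5, 47.8 and 44.3 in *vip3-1*. Both the highest and the lowest library were WT, and the lowest was again replicate 3. The means were 43.0 ± 7.67 and 43.2 ± 5.19 CPM (SD, n = 3 each). The log2 fold change was 0.005 (SE 0.15, adjusted p = 0.983, edgeR's quasi-likelihood test), with a 95% interval that runs from a fold of 0.777 to 1.29. The sign of the value turned with library sizes alone (-0.089, adjusted p = 0.652) and without WT replicate 3 (-0.134, adjusted p = 0.35), and edgeR called *AGL42* in neither.

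**Figure D2:**
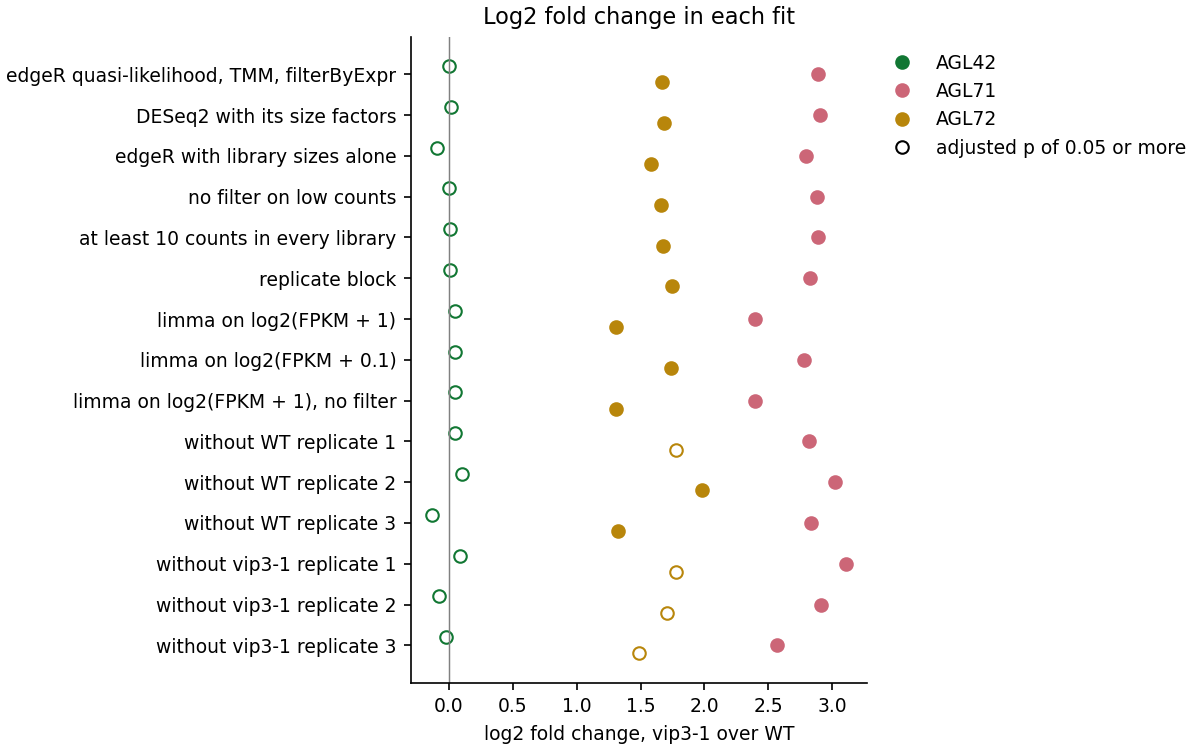
Log2 fold change (*vip3-1* over WT, horizontal axis) of each member in the main fit, at the top, and in the 14 alternative fits. Filled points have an adjusted p under 0.05. *AGL71* is filled throughout, between 2.40 and 3.11, *AGL72* is open in 4 fits that leave out a library, and *AGL42* is open throughout and lies on both sides of 0.

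The members were next compared within each library, by the log2 ratio of their CPM with 0.5 added, which does not depend on how libraries are scaled except through the added value. The ratio of the plain counts, with nothing added, was computed as well after the data had been seen. The ratio of *AGL71* to *AGL42* averaged -4.50 (SD 0.21) in WT and -2.05 (SD 0.41) in *vip3-1*, a difference of 2.45. The ratio of *AGL72* to *AGL42* averaged -4.94 (SD 0.25) in WT and -3.62 (SD 0.22) in *vip3-1*, a difference of 1.32. Between the neighbours, the ratio of *AGL71* to *AGL72* averaged 0.44 (SD 0.43) in WT and 1.57 (SD 0.27) in *vip3-1*, a difference of 1.13. With 0.5 CPM added, the genotypes did not overlap in any of the 3 pairs, and the two-sided exact permutation test gave p = 0.1 (0.1 adjusted over the 3 pairs), the smallest value that 3 libraries against 3 allow. These tests therefore cannot pass the threshold. For the neighbours the separation depended on the added value: the plain count ratio of *AGL71* to *AGL72* was 1.15, 1.23 and 2.96 in WT and 2.69, 3.45 and 3.83 in *vip3-1*. WT replicate 3, with 23 counts of *AGL72*, then lay above *vip3-1* replicate 1, and the exact permutation p was 0.2 for a difference of 1.03. A difference in response between the neighbours was thus not shown. The plain count ratios of *AGL42* to *AGL71* and *AGL72* did not overlap between the genotypes. With nothing added the differences were larger, 2.82 for *AGL71* to *AGL42* and 1.79 for *AGL72* to *AGL42*. Across those libraries, the log2 CPM of *AGL71* and *AGL72* had a Pearson r of 0.902, *AGL42* and *AGL72* 0.471, and *AGL42* and *AGL71* 0.16, values that the step between the genotypes enters.

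Levels of different genes were compared per length, in the FPKM that the authors deposited (fragment numbers relative to transcript length and sequencing depth). *AGL42* had an FPKM of 92.2, 66.4 and 45.9 in the WT libraries and 76.1, 66.2 and 61.6 in *vip3-1*. *AGL71* had an FPKM of 2.44, 2.79 and 1.82 in WT and 12.6, 15.8 and 22.3 in *vip3-1*. *AGL72* had an FPKM of 2.39, 2.38 and 0.765 in WT and 5.50, 5.14 and 6.70 in *vip3-1*. In WT the neighbours thus overlapped in level, and in *vip3-1* each *AGL71* library exceeded each *AGL72* library. The FPKM ratio of *AGL71* to *AGL72* was 1.02, 1.17 and 2.37 in the WT libraries and 2.29, 3.08 and 3.33 in *vip3-1*, with the same overlap as the plain count ratio. *AGL42* made up 92.8% to 95% of the summed FPKM of the 3 genes in WT and 68.0% to 80.8% in *vip3-1*. That sum was 97.1, 71.5 and 48.5 in WT and 94.2, 87.2 and 90.6 in *vip3-1*, with overlap between the genotypes.

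The order of the 4 tested genes of the *SOC1* clade by mean FPKM was the same in both genotypes. *SOC1* came first with 113 (94.1 to 135) in WT and 236 (205 to 261) in *vip3-1*, followed by *AGL42* with 68.2 and 68.0, *AGL71* with 2.35 and 16.9, and *AGL72* with 1.84 and 5.78. *AGL19*, a flowering promoter that responds to cold, had a mean FPKM of 0.195 in WT and 0.203 in *vip3-1*, and *AGL14*, best known from the root, had 0.0437 in WT and was listed at 0 in *vip3-1*. These last 2 were too low to be ranked against each other. Among the 4 tested genes, the libraries of neighbours in this order overlapped in WT for *AGL71* with *AGL72*, and for no neighbours in *vip3-1*. From *AGL42* to *AGL71* the mean FPKM dropped by a factor of 29.1 in WT and 4.02 in *vip3-1*. The 4 genes kept their rank when CPM were divided by the longest annotated exon model. The deposited FPKM also rest on a length that varied between libraries. Counts divided by FPKM implied 507, 758 and 787 bases for *AGL42* in the WT libraries, compared with 478, 684 and 707 bases in *vip3-1*. In WT the lengths were 535, 614 and 748 bases for *AGL71*, 473, 583 and 601 for *AGL72*, and 853, 1179 and 1215 for *SOC1*. All 4 genes had their lowest length in replicate 1 of both genotypes. The FPKM compared between libraries above, and their sums and ratios, carry this variation. *AGL42* was highest in WT replicate 1 by FPKM and in WT replicate 2 by CPM.

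**Figure D3:**
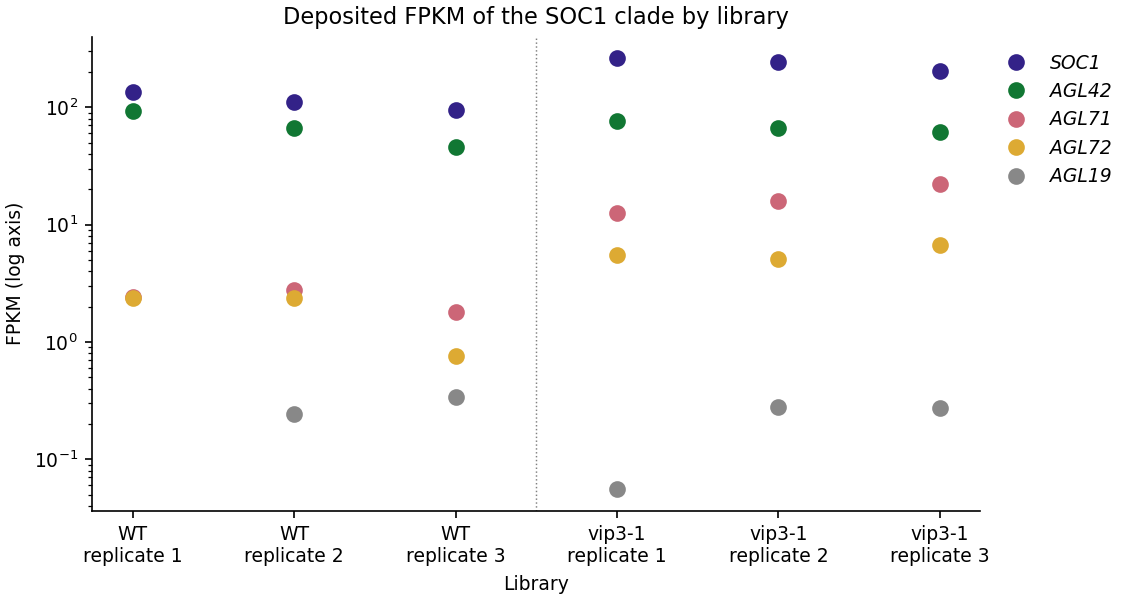
FPKM of 5 genes of the *SOC1* clade in each library, on a log axis. *AGL71* and *AGL72* overlap in WT, between 0.765 and 2.79, and are apart in *vip3-1*, while *SOC1* and *AGL42* stay above them in every library. A value of 0, as of *AGL19* in WT replicate 1, cannot be drawn on this axis, and *AGL14* was left out.

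*SOC1* (listed as *AGL20* in the reference table) is the best studied gene of the clade. It had 7931, 7270 and 5721 counts in WT and 11054, 13993 and 11928 in *vip3-1*, with every *vip3-1* library above every WT library. Its mean rose from 116 ± 9.98 to 241 ± 31.3 CPM (SD over 3 libraries each), with a log2 fold change of 1.05 (SE 0.12, adjusted p = 0.00265, edgeR's quasi-likelihood test). In the 14 alternative fits it lay between 0.94 and 1.12 and was called in each. *AGL14* and *AGL19* did not pass the filter on low counts. *AGL14* had 3, 1 and 2 counts in WT and 0 in each *vip3-1* library, at or under a floor of 3 counts per library, so no fold is given. *AGL19* had 0, 7 and 9 counts in WT and 1, 7 and 7 in *vip3-1*, and the genotypes overlapped.

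The genes around the members were counted by their order on the chromosome, 5 on each side. Over all tested genes, 14.6% were called higher and 16.1% lower, so single calls among so few neighbours are no result about the loci. Around *AGL72* and *AGL71*, 8 of 10 neighbours were tested, of which 1 was called higher, 1 lower and 6 were not called. The one that was higher, AT5G51890, starts 2541 bases beyond *AGL71* and rose from 0.478 ± 0.193 to 2.51 ± 0.453 CPM (SD over 3 libraries each), with a log2 fold change of 2.38 (SE 0.37, adjusted p = 0.00679, edgeR's quasi-likelihood test). AT5G51880, which was not called, starts between it and *AGL71* and spans 21089383 to 21091073. It overlaps AT5G51890, which spans 21090956 to 21092410. The 6 libraries held 12266 counts of AT5G51880 and 473 of AT5G51890, and an exchange of reads in the overlap was not tested. The one that was lower, *PGM*, encodes the plastid phosphoglucomutase needed for starch synthesis and had a log2 fold change of -0.34 (adjusted p = 0.0276, edgeR). Around *AGL42*, 7 of 10 neighbours were tested and 6 were not called, while AT5G62200 was lower, with a log2 fold change of -0.32 (adjusted p = 0.0399, edgeR). *GA20OX2*, described below, ends 24962 bases before *AGL72* and outside its 5 nearest genes.

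**Figure D4:**
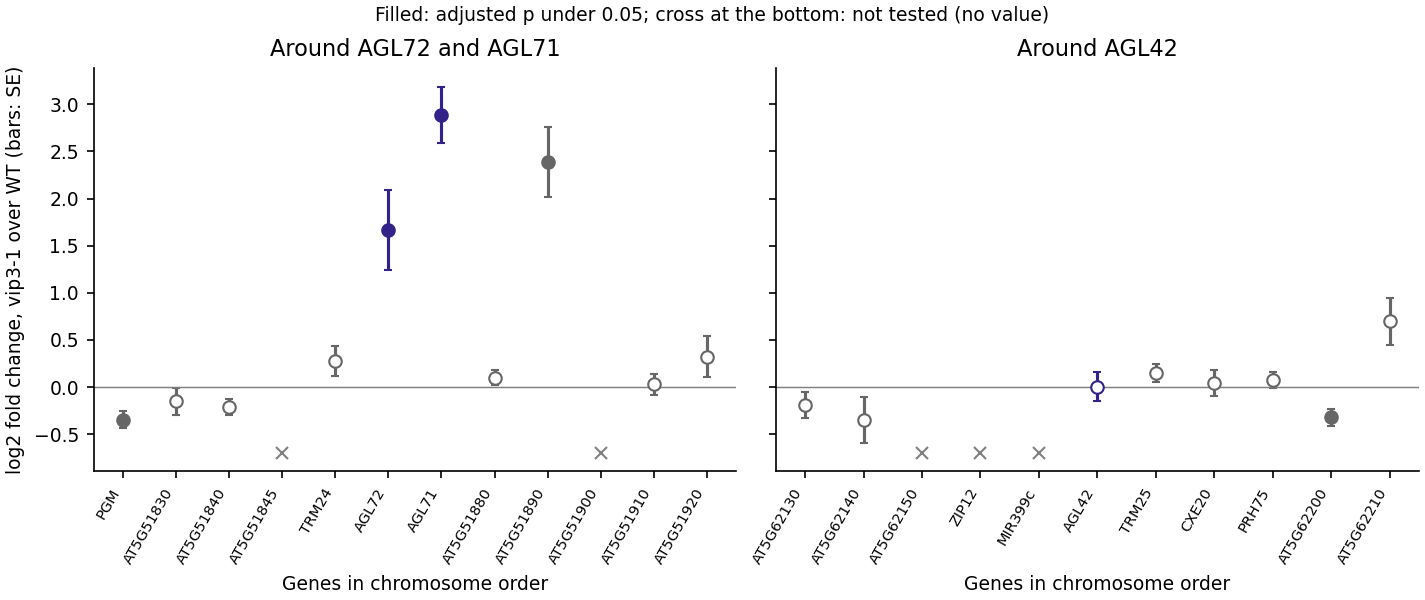
Log2 fold change (*vip3-1* over WT, bars SE) of the members, in dark blue, and of the 5 annotated genes on each side, in chromosome order. Filled points have an adjusted p under 0.05 and crosses at the bottom mark genes that were not tested. *AGL72*, *AGL71* and AT5G51890 lie between 1.67 and 2.89, and the other tested genes of both regions between -0.35 and 0.70.

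Listed genes that act with the members in flowering, gibberellin response and abscission were read in the same fit. Of 64 listed genes 52 were tested, and 11 were called higher and 13 lower, which is 46.2% beside 30.7% of all tested genes. The lists were chosen with earlier results of these data known. A called share above that of all genes, here or in a single list below, is therefore a description only. Among 11 tested floral repressors, 8 were lower and 1 was higher, with a median log2 fold change of -2.69 beside -0.018 over all genes. The lower ones included 4 genes of the *FLC* clade that are named here. *MAF1* went from 64.2 to 0.111 CPM (adjusted p = 0.000192, edgeR), *MAF3* from 18.9 to 0.0587 CPM (adjusted p = 0.000235, edgeR) and *MAF5* from 3.85 to 0.222 CPM (adjusted p = 0.00493, edgeR). *FLC*, which represses *SOC1*, had 0.878, 0.913 and 1.86 CPM in the WT libraries and a mean of 0.0455 CPM in *vip3-1* (adjusted p = 0.00325, edgeR), where no library had over 3 counts, so no fold is given. *SVP*, its partner in repression, had 143 ± 12.2 CPM in WT and 110 ± 17.1 in *vip3-1* and was not called (log2 fold change -0.38, adjusted p = 0.0622, edgeR). The repressor that rose was *TFL1*, which keeps the inflorescence meristem indeterminate, with a log2 fold change of 1.51 (adjusted p = 0.00627, edgeR), and it is named after its value was seen.

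Among 12 tested flowering promoters and meristem identity genes, 3 were higher, 4 were lower and 5 were not called, which is 58.3% called beside 30.7% of all tested genes, with a median log2 fold change of -0.07. *AGL24*, whose protein pairs with SOC1, fell from 76.9 ± 6.50 to 15.7 ± 3.72 CPM (SD over 3 libraries each), with a log2 fold change of -2.29 (adjusted p = 0.00103, edgeR). *SPL5* and *SPL3*, of the age pathway, had log2 fold changes of -1.06 (adjusted p = 0.00677, edgeR) and -0.77 (adjusted p = 0.00478, edgeR). *FDP*, a bZIP relative of the FT partner FD, rose by 0.91 on the log2 scale (adjusted p = 0.0125, edgeR), and *LFY*, which gives the young flower its identity, by 0.47 (adjusted p = 0.0182, edgeR). *FT*, which moves as a protein from leaf to apex, was not tested, with means of 0.0117 and 0.0585 CPM.

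Among 16 tested genes of gibberellin metabolism and signalling, 3 were higher and none lower, which is 18.8% beside 30.7% of all tested genes, with a median log2 fold change of 0.14. *GA20OX2*, an enzyme of gibberellin synthesis, rose from 5.93 ± 1.37 to 18.3 ± 1.23 CPM (SD over 3 libraries each), with a log2 fold change of 1.63 (adjusted p = 0.00224, edgeR). The other two were the DELLA repressor genes *RGL3* (1.15, adjusted p = 0.00762, edgeR) and *RGA* (0.75, adjusted p = 0.00558, edgeR). Without WT replicate 3, 5 genes of this list were higher and none lower, and with the replicate block 4 were higher and 1 lower. Calls also rose over the whole table in those fits, to 8055 of 20928 and 7388 of 20690 tested genes, beside 6354 in the main fit. Among 12 tested genes of floral organ abscission, the process that *AGL42* delays, 3 were higher and 1 lower, with a median log2 fold change of -0.28. The called share of 33.3% is near the 30.7% of all tested genes, and so no result about this list. *KNAT2*, a homeobox gene of the abscission pathway, rose by 0.85 on the log2 scale (adjusted p = 0.00154, edgeR), and *HSL2*, a receptor kinase of the same pathway, by 0.32 (adjusted p = 0.0256, edgeR). *KNAT6*, a close relative of *KNAT2*, rose by 0.27 (adjusted p = 0.0284, edgeR). *NEV*, which acts in membrane traffic, had a log2 fold change of -0.28 (adjusted p = 0.0174, edgeR). Without WT replicate 3 the abscission list had 3 higher and 4 lower genes, in the fit that called 8055 of 20928 genes.

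**Figure D5:**
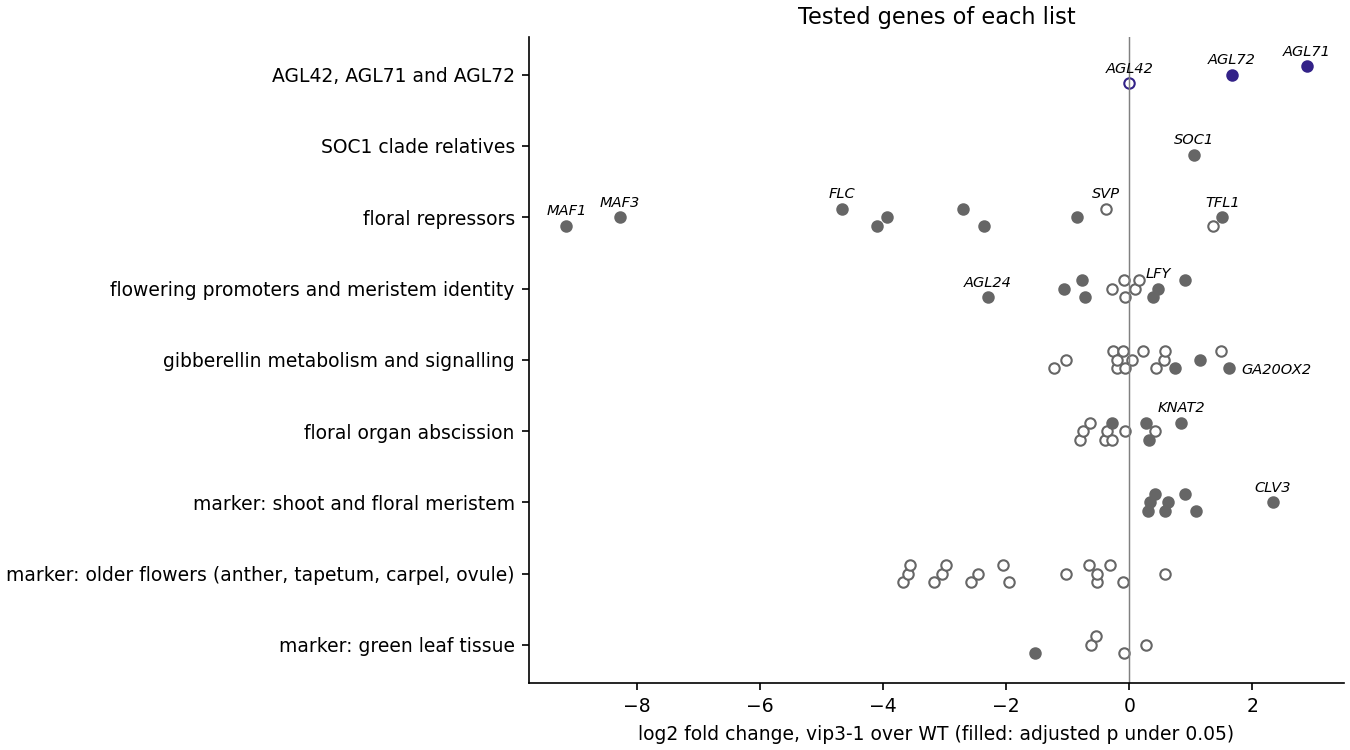
Log2 fold change (*vip3-1* over WT, horizontal axis) of the tested genes of each list, with the members in dark blue at the top. Filled points have an adjusted p under 0.05, and the small vertical offsets only separate points. *AGL71* and *AGL72* stand at 2.89 and 1.67, the repressors reach -9.15 at *MAF1*, and the 17 tested markers of older flowers are all open in this fit (3 were called lower with the replicate block).

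The genes whose log2 CPM followed each member most closely over the 6 libraries were ranked by Pearson r among 16938 genes (16939 for *AGL72*), as a description in which a step between the genotypes counts as likeness. *AGL71* was followed by *SARK* and *ALATS* (r = 0.9988 each) and *PRT6* (r = 0.9986), and 750 genes had an r over 0.95. *AGL72* was followed by *PERK8* (r = 0.9993), *LBA1* (r = 0.9983) and AT4G01810 (r = 0.9958), and 682 genes had an r over 0.95. *AGL42*, without that step, was followed by *SYN2* (r = 0.9863), *ZFP4* (r = 0.9852) and *MSI2* (r = 0.9835), and only 22 genes had an r over 0.95. Likeness in pattern was not likeness in size: *AGL71* differed by 2.89 on the log2 scale, *SARK* by 1.14, *PRT6* by 0.40 and *ALATS* by 0.21. *AGL72* differed by 1.67, *PERK8* by 0.188, *LBA1* by 0.236 and AT4G01810 by 0.165. *ALATS*, *PERK8*, *LBA1* and AT4G01810 were not called (adjusted p = 0.0607, 0.074, 0.0669 and 0.0953, edgeR).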

How the data were processed

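Reads were trimmed with Trimmomatic and mapped by the authors to TAIR10 with TopHat2 2.0.6 and Bowtie2 2.0.5. Cufflinks 2.1.1 gave the deposited estimated counts per gene, which are unscaled, and the deposited FPKM, which the authors scaled by transcript length and mapped fragments. SAMtools 1.2 is also named in the submitters' processing notes. Strand, read layout and the treatment of reads with several matches are not given in the sources used here. The authors' own Cuffdiff comparison (fold changes, test scores and p-values) was not used, apart from its gene positions in a check of the build.

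Of the count values, 1.47% were not whole (tolerance 1e-06), although whole counts had been planned for. All counts were rounded, and those of the 3 members were whole as deposited. Total counts per library were 69033269, 55519813 and 50040048 in WT and 53165842, 53519921 and 51944079 in *vip3-1*. A floor of 3 counts, 0.0425 to 0.0591 CPM, covers counting error only. No library was a copy of another of its genotype (chi-square per degree of freedom over genes at least 22.6).

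Genotypes were compared over all 33554 genes with edgeR 4.0.16 in R 4.3.3: filterByExpr, TMM, quasi-likelihood F-test with genotype as the only term, and Benjamini-Hochberg adjustment over 20690 genes, with calls at an adjusted p under 0.05. SE is the absolute log2 fold change over the square root of F, and intervals are 95%. Ratios between members used CPM + 0.5 and two-sided exact permutation tests. The scripts were tested on simulated data. Alternatives were DESeq2 1.42.0, library sizes alone, no filter, at least 10 counts in every library, a replicate block, limma 3.58.1 on log2(FPKM + 1) or log2(FPKM + 0.1) for genes of at least 1 FPKM in at least 3 libraries, the former also without that filter, and each library left out in turn. The ratio of plain counts between members was added after the data had been seen.

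The labels number the libraries of each genotype and name no shared day or batch. Same-numbered libraries deviated together from their genotype means (correlations over genes 0.217, 0.19 and 0.367), and the numbers were taken as pairs by the rule that each exceed 0.1. WT replicate 1 correlated more with *vip3-1* replicate 2 (0.289) than with its own number, so the pairing is uncertain.

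The members, lists, markers and the rule for named genes were chosen with earlier results of these data known. Named are the members, their clade, *VIP3*, the called genes with the largest changes in each list (at most 4), *FLC*, *SVP*, *FT* and *LFY*, called genes among the 5 neighbours on each side, and the 3 genes most alike in pattern whose mean log2 CPM reached at least 1. Sequences and gene models are from RefSeq, TAIR10.1. All 4815 gene positions compared with the authors' TAIR10 overlapped the same gene, and 55.0% shared a transcript end. The CArG box was searched on both strands by its usual degenerate pattern.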

Additional observations from a re-analysis of the deposited data

How the results depend on the processing

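The call of *AGL71* and its direction held in all 14 alternatives (2.40 to 3.11, adjusted p from 9.88e-18 to 0.0165). *AGL72* kept its direction in all 14 and its call in 10, and it was not called without WT replicate 1 or without any 1 *vip3-1* replicate. Over the fits that leave out a library its log2 fold change ran from 1.32 to 1.98 and its adjusted p from 0.00985 to 0.0885. *AGL42* was not called in any alternative. Its value turned negative with library sizes alone (-0.089) and in 3 of 6 fits without 1 library, which ran from -0.134 to 0.107. With the replicate block, edgeR gave 2.83 (adjusted p = 0.00583) for *AGL71*, 1.75 (adjusted p = 0.0442) for *AGL72* and 0.013 (adjusted p = 0.944) for *AGL42*, and it changed no call of a member, while the listed genes went from 11 higher and 13 lower to 12 higher and 17 lower. The exact test of pairs within the replicate block gave p = 0.25 for each pair, the smallest that 3 pairs allow. The differences between members kept their sign in all 10 alternatives each. Genes called over the whole table numbered 6354 in the main fit, 8084 with DESeq2, 7056 with library sizes alone and 7388 with the replicate block. They numbered 5501 in edgeR with no filter and 6103 with at least 10 counts in every library. Limma on log2(FPKM + 1) and log2(FPKM + 0.1) called 3639 and 3603, and limma with no filter 3297. Without 1 library the number was 2673 to 8055. Of the called genes, 3031 were higher and 3323 lower with TMM, and 2270 and 4786 with library sizes alone. The called genes among the listed ones numbered 18 to 31, beside 24. The causes were not tested. *AGL72* had the fewest counts of the members, 23 to 193 a library.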
